A study of Mus musculus with 12 samples.

Results

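The 9 acute phase genes Lcn2, Cp, Saa1, Saa2, Saa3, Hp, C3, Cfb and Orm1 were followed by RNA sequencing in cultured mouse bile duct epithelium. They were chosen by symbol, as the rows of the raw count table whose Ensembl identifier carries one of those names, and they are 9 of 53700 gene rows. The cultures were intrahepatic cholangiocyte organoids, hollow balls of duct epithelium grown from liver tissue in a basement membrane gel, untreated, with RNA taken at passage 5. Per mouse, 1 culture was started from hilar and 1 from peripheral liver tissue, so that the 12 libraries of 6 mice fell into 4 groups of 3. The WT hilar and WT peripheral groups came from mice 1221, 1223 and 1225, which carried the wild-type Jag1 gene. The Ndr hilar and Ndr peripheral groups came from mice 1219, 1220 and 1224, whose genotype was Jag1 Ndr/Ndr, with both copies of the gene carrying the Ndr allele. Jag1 encodes a ligand of Notch receptors, and mice with 2 Ndr alleles are known as a model of Alagille syndrome, a disease with too few bile ducts. The labels give no age for the animals. Organoids are expanded epithelium without the blood, immune and hepatocyte neighbours of a liver, which limits what they stand for. The labels date the start of the cultures to day 15 of June for WT mice 1221 and 1223, day 17 for Ndr mouse 1219, day 18 for Ndr mouse 1220, and day 21 for WT mouse 1225 and Ndr mouse 1224. A single date therefore held both genotypes.

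Acute phase genes encode secreted proteins that rise in blood during infection and injury. Hepatocytes are their main source in the body, where interleukin 6 acts through STAT3, and interleukin 1 and bacterial products act through NF-kB and C/EBP factors. Epithelia, bile duct cells among them, can make several of these proteins themselves. Among the 9 genes, Lcn2 encodes lipocalin 2, which binds bacterial siderophores and so withholds iron. Cp encodes ceruloplasmin, a copper-carrying ferroxidase, and Hp encodes haptoglobin, which binds free haemoglobin. C3 encodes the central complement component, and Cfb encodes complement factor B, the protease of the alternative pathway that acts with it. Saa1, Saa2 and Saa3 encode serum amyloid A proteins, and Orm1 encodes orosomucoid 1, a plasma glycoprotein.

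The libraries held 6708822 to 16030880 assigned reads. The epithelial identity given in the labels was checked against markers: the summed level of 12 cholangiocyte marker genes was 12024 to 22160 CPM (counts scaled so that every library has the same total), Epcam averaged 770 to 835 CPM by group, and all 12 were tested. Pecam1, which defines endothelium, and Ptprc, which defines leukocytes, did not exceed 0.130 and 0.106 CPM in any library, and the 7 endothelial markers summed to 0.617 CPM or less. Alb, the main product of hepatocytes, was at 0.310 to 40.8 CPM. These single genes do not stand for every marker of their cell types. The 14 leukocyte markers summed to at most 85.1 CPM in a library, and the 16 hepatocyte markers to 161 to 400.5 CPM. The 10 fibroblast and stellate cell markers summed to 0.377 to 28.8 CPM. Of these 3 lists, 5, 6 and 2 genes were tested. Jag1 itself averaged 103 to 141 CPM by group. Its level was 0.17 lower in Ndr mice on the log2 scale (SE 0.198, adjusted p = 0.926, edgeR), and a count of Jag1 reads does not tell the alleles apart.

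Lcn2, Cp and C3 were among the most abundant transcripts of these cultures, while Hp, Saa3 and Cfb were low and Saa1, Saa2 and Orm1 were at or near 0. By mean CPM over the 12 libraries, Lcn2 ranked 9, Cp ranked 11 and C3 ranked 28 of the 28444 genes with a read. Together the 9 genes took 0.0901% to 1.40% of the assigned reads of a library. Per kilobase of exon, the median level was 1294 CPM for Lcn2, 277 for C3, 270 for Cp, 17.8 for Hp, 4.52 for Cfb and 1.69 for Saa3. Only these 6 passed the filter on low counts, and each test below is on them.

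Upstream sequence was matched by symbol in a RefSeq promoter table on GRCm38.p6 for 6 of the 9 genes, Lcn2, Cp, Saa1, Saa2, Saa3 and C3. The bases shown are the 250 before the annotated start of the 3 abundant genes and of Saa3, because their levels were positively correlated over the 12 libraries, as described further on. Capitals mark the C/EBP core TTGCNNAA on either strand. Lcn2 is on the minus strand, chr2:32387740-32387989, and its core lay 216 to 209 bases before the start. Cp is on the plus strand, chr3:19956999-19957248, the second of its 2 listed starts, with the core 70 to 63 bases before it. C3 is on the minus strand, chr17:57228137-57228386, with the core 45 to 38 bases before the start. Saa3 is on the minus strand, chr7:46715677-46715926, with the core 99 to 92 bases before the start.
Lcn2: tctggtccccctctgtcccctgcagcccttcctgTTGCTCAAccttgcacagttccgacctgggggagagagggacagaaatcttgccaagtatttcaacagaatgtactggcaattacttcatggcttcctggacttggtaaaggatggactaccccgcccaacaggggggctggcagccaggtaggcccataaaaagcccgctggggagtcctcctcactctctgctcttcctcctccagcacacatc
Cp: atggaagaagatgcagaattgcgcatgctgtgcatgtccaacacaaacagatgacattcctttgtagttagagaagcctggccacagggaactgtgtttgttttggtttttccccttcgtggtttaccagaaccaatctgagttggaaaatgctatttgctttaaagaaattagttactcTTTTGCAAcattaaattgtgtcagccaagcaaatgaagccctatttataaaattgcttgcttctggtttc
C3: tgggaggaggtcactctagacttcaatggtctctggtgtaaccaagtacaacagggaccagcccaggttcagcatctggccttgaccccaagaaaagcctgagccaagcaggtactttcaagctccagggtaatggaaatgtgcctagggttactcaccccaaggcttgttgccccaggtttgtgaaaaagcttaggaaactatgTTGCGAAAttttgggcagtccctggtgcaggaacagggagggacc
Saa3: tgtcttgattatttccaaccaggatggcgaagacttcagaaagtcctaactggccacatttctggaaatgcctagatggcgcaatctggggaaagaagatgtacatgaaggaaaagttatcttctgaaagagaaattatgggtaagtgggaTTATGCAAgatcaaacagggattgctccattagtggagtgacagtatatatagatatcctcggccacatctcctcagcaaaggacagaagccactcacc
The sites read TTGCTCAA in Lcn2, TTTTGCAA in Cp, TTGCGAAA in C3 and TTATGCAA in Saa3. Saa1 and Saa2, neighbours on chromosome 7, both held TTGCACAA, 182 to 175 and 183 to 176 bases before the start. The core thus occurred in all 6 genes that had a promoter in the table, and the other listed Cp start held none. Of 32544 distinct promoters of 300 bases (250 before and 50 after the start), 10.8% held the core. The STAT site TTCNNNGAA was in 8.33% of all promoters, the NF-kB site in 8.49%, and neither set of letters was found in the 7 windows of the 6 genes. A match is a description of the letters, and factor binding was not measured.

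Lcn2 was measured at 4120, 7544 and 337 CPM in the hilar cultures of WT mice 1221, 1223 and 1225, and at 5563, 3927 and 3043 CPM in their peripheral cultures. In Ndr mice 1219, 1220 and 1224 it was at 3746, 2620 and 2063 CPM in hilar cultures and at 174, 696 and 3827 CPM in peripheral cultures. The 3 low libraries, WT hilar 1225 and Ndr peripheral 1219 and 1220, came from both genotypes and both regions, and all 4 groups overlapped. The highest library, WT hilar 1223, held 43.3 times the level of the lowest, Ndr peripheral 1219. The group means ran from WT peripheral (4178 ± 1278 CPM, SD, n = 3) through WT hilar (4000 ± 3605) and Ndr hilar (2810 ± 858) to Ndr peripheral (1566 ± 1976), and each step between neighbours was smaller than the larger SD of the pair.

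Cp was at 5333, 3501 and 384 CPM in WT hilar cultures of mice 1221, 1223 and 1225 and at 5210, 4299 and 1938 CPM in the WT peripheral ones. It was at 2818, 3299 and 2339 CPM in Ndr hilar cultures of mice 1219, 1220 and 1224 and at 1200, 765 and 1781 CPM in the Ndr peripheral ones. WT hilar 1225 was the lowest library, 13.9-fold under WT hilar 1221, and the 3 Ndr peripheral libraries lay under all 3 WT peripheral libraries. The order of the means was WT peripheral (3816 ± 1689 CPM, SD, n = 3), WT hilar (3072 ± 2502), Ndr hilar (2819 ± 480) and Ndr peripheral (1249 ± 510). The step from Ndr hilar to Ndr peripheral was the only one larger than the SD of both its groups.

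C3 was at 3101, 1583 and 154 CPM in the WT hilar cultures, and at 3440, 2297 and 1268 CPM in the WT peripheral cultures, in the same order of mice. In the Ndr hilar cultures it was at 956, 2508 and 1262 CPM, and in the Ndr peripheral cultures at 391, 174 and 1815 CPM. The same 3 libraries were lowest, and the range was 22.3-fold. WT peripheral had the highest mean (2335 ± 1087 CPM, SD, n = 3), WT hilar (1613 ± 1474) and Ndr hilar (1575 ± 822) were almost equal, and Ndr peripheral was lowest (793 ± 892), with no step above the SD of its groups. Cfb, whose protein acts with that of C3, was at 23.9, 14.5 and 10.5 CPM in WT hilar, 35.1, 12.4 and 13.1 CPM in WT peripheral, 8.60, 9.12 and 26.8 CPM in Ndr hilar, and 2.99, 11.8 and 35.2 CPM in Ndr peripheral cultures. Its means were close, from 14.8 CPM in Ndr hilar to 20.2 CPM in WT peripheral, and the 11.8-fold range lay between 2 libraries of the same group, Ndr peripheral 1224 and 1219. The level of Cfb is uncertain, because 73.0% of its 50-base stretches also occur in Gm20547, an overlapping gene model that had 0 counts in every library, and how reads shared by overlapping genes were counted is not given in the sources used here.

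Hp ranged from 0 to 440 CPM. It was at 440, 8.48 and 0.125 CPM in WT hilar cultures of mice 1221, 1223 and 1225, and at 164, 21.0 and 20 CPM in the peripheral ones. It was at 105, 71.3 and 46.5 CPM in Ndr hilar cultures of mice 1219, 1220 and 1224, and at 0, 0.847 and 36.2 CPM in the peripheral ones. The Ndr hilar cultures were the most even group, while WT hilar held both the highest library and the lowest non-zero one. The 0 in Ndr peripheral 1219 allows up to 0.310 CPM, from 3 counts, for counting error only.

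Saa3 was at 136, 34.7 and 0.125 CPM in WT hilar cultures and 147, 2.15 and 64.9 CPM in WT peripheral cultures. In Ndr cultures it was at 4.35, 2.22 and 4.46 CPM in the hilar group and at 0, 2.17 and 26.2 CPM in the peripheral group. Both cultures of WT mouse 1221 were the highest, and 2 of the 6 WT libraries were as low as the Ndr hilar ones. Saa1 had 1 read in 1 library, Saa2 had 7 reads in 5 libraries and Orm1 had 21 reads in 8 libraries, with highest levels of 0.106, 0.317 and 1.08 CPM. These 3 genes were not tested. A count of 0 allows 0.183 to 0.463 CPM, depending on the library. Saa1 and Saa2 share 31.1% and 30.0% of their 50-base stretches with each other, and Orm1 shares 20.4% with Orm2, so reads of those stretches could have been assigned to either gene.

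**Figure D1:**
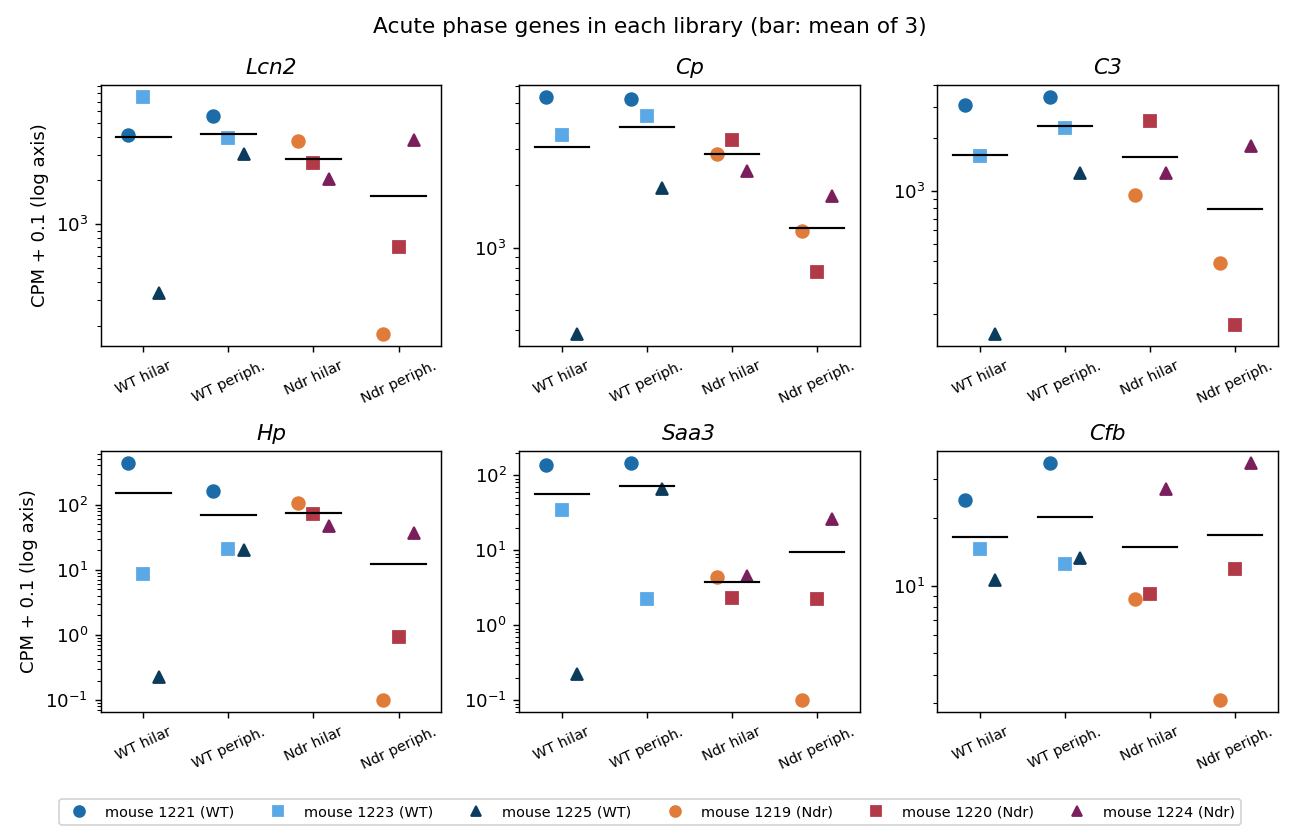
Levels of the 6 tested genes in each of the 12 libraries, as CPM plus 0.1 on a log axis, by group of genotype and region, with colour and shape for the mouse and a bar for the mean of 3 libraries. WT hilar 1225 and Ndr peripheral 1219 and 1220 sit low for Lcn2, Cp, C3 and Hp, and the spread within groups is as wide as the spread between them.

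The 3 low libraries were the lowest in the summed level of the set, which rests on Lcn2, Cp and C3. The summed level of the 9 genes was 886 CPM in WT hilar 1225, 1768 CPM in Ndr peripheral 1219 and 1650 CPM in Ndr peripheral 1220, against 5742 to 14560 CPM in the other 9 libraries. The other acute phase genes of a list of 22, of which 12 were tested, summed to 303, 275 and 405 CPM in these libraries and to 643 to 1262 CPM in the rest. The other complement genes of a list of 27 summed to 104, 131 and 172 CPM in them and to 228 to 1218 CPM in the rest. Among the abundant members of these lists were Lbp, the lipopolysaccharide-binding protein, Il1rn, the interleukin 1 receptor antagonist, and Cfi, the protease that inactivates C3b. Lbp was at 31.5 CPM in the lowest WT hilar library and 538 CPM in the highest. Il1rn did not follow the sums: its mean was highest in Ndr peripheral cultures, at 203 CPM (60.8 to 356), and at most 167 CPM was measured in a WT library. For Cfb, WT hilar 1225 and Ndr peripheral 1220 were above 2 of the Ndr hilar libraries.

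**Figure D2:**
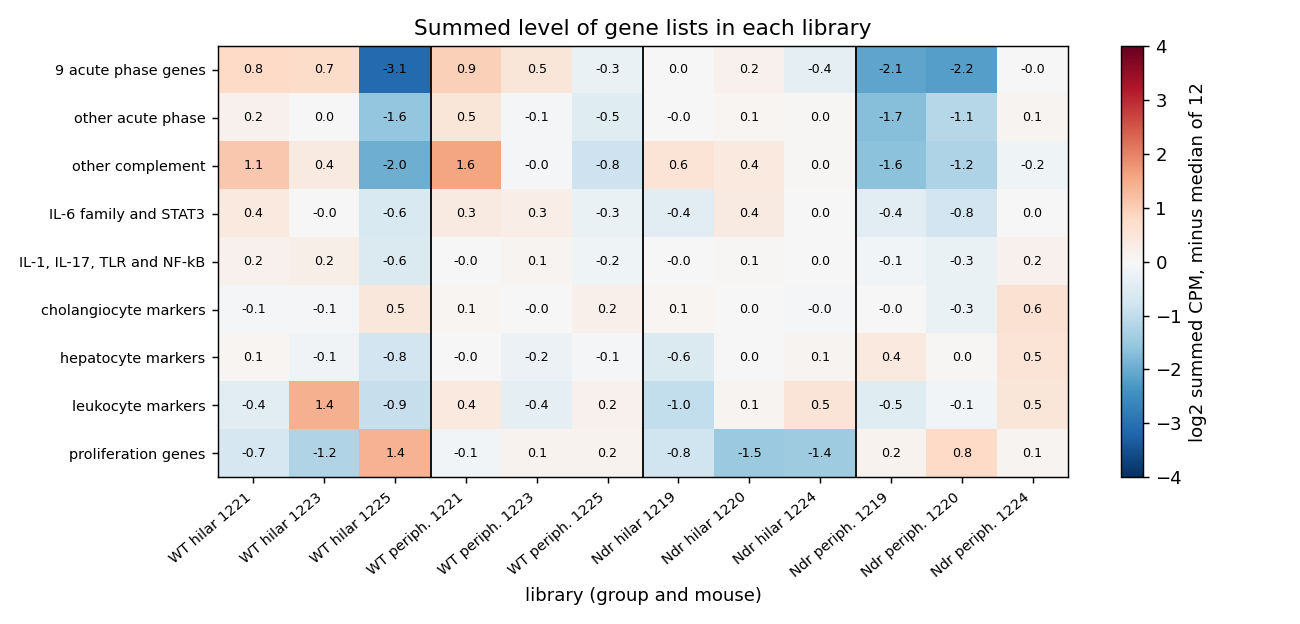
Summed CPM of each gene list in each library, as log2 difference from the median of the 12 libraries, with libraries in columns by group and mouse. The 9 acute phase genes and the other acute phase and complement genes are lowest in the same 3 libraries, while the cholangiocyte markers differ from their median by at most 0.6.

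Markers of other cells and of growth were read in the same libraries. The 12 cholangiocyte markers summed to 20142, 14311 and 12024 CPM in WT hilar 1225 and Ndr peripheral 1219 and 1220. The 16 hepatocyte markers summed to 161, 358 and 282 CPM there and to 183 to 401 CPM in the rest, and the 14 leukocyte markers to 16.8, 22.5 and 29.6 CPM against 16 to 85.1 CPM. A list of 8 proliferation genes, chosen after the values were seen, summed to 1545, 654 and 1026 CPM in the 3 low libraries and to 209 to 655 CPM in the other 9. WT hilar 1225 and Ndr peripheral 1220 were thus the highest for these genes. Whether growth had a part in the levels of the acute phase genes was not tested.

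Levels of the members were compared across libraries. Over the 12 libraries, all 15 pairs of the 6 tested genes had a positive Pearson correlation of log2 CPM, with a median r of 0.75, and a median of 0.75 after each group's mean was taken out. These values are a description, since the libraries share mice. Over the 6 mouse totals, in which the reads of both cultures of a mouse were summed, the 15 pairs were again positive, with r from 0.35 to 0.88 and a median of 0.64. The closest pair was Cp and C3 (r = 0.88, exact permutation p = 0.0278, rho = 0.83, exact p = 0.0583, n = 6 mice), followed by Lcn2 and Cp (r = 0.87, exact p = 0.0264, rho = 0.89, exact p = 0.0333). After Benjamini-Hochberg adjustment over the 15 pairs the smallest p was 0.208 for r, by the exact permutation test. Without the 2 mice farthest from the median of the first gene of a pair, r was 0.40 for Cp and C3 and 0.41 for Lcn2 and Cp. Taking out extremes narrows the range, which by itself tends to lower r, and leaves few mice. Both relations over mice are therefore not shown to hold without those animals. In the same check r was negative for 4 of the 15 pairs, Saa3 and Hp (-0.79), Hp and C3 (-0.78), Cp and Saa3 (-0.61) and Hp and Cfb (-0.18).

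The genes with the most similar profile over the 12 libraries were searched among 11849 genes with a mean of at least 5 CPM, members of the set included. For Lcn2 they included Vnn3, a vanin family gene, and Chil1, a chitinase-like secreted protein, with r of 0.93 each. For Cp they were Irak3, a brake on Toll-like receptor signalling, C3 and the phosphate transporter Slc34a2, with r of 0.94 each. For C3 they were H6pd, an enzyme of the endoplasmic reticulum, Tgm2, tissue transglutaminase, and Slc34a2, with r of 0.96, 0.96 and 0.95. Saa3 was closest to the neutrophil chemokine Cxcl3, to Hpx, which encodes the haem-binding protein hemopexin, and to Fam107a, with r of 0.93, 0.91 and 0.90. Hp was closest to Ssbp2, Serpina7 and Fkbp14, with r of 0.94, 0.94 and 0.93, and Cfb to Gpd1, Sema6d and Tox, with r of 0.92, 0.88 and 0.87. These are the highest of many correlations and are given with no test.

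The genotype comparison asked whether the Ndr allele changed the genes in cultures of each region. In hilar cultures no gene of the 6 passed the test, and the estimates of 5 were smaller than their errors. The log2 difference, Ndr minus WT, was -0.51 (SE 1.03) for Lcn2, -0.12 (SE 0.709) for Cp, -0.03 (SE 0.965) for C3, -0.15 (SE 0.768) for Cfb and -1.01 (SE 1.86) for Hp. Saa3 had the largest estimate, 15.4-fold lower in Ndr (log2 difference -3.95, SE 1.91, adjusted p = 0.750, edgeR's quasi-likelihood test with Benjamini-Hochberg adjustment), and WT hilar 1225 lay under all 3 Ndr libraries. All 6 estimates were negative with a median of -0.33, against -0.0046 over the 15014 genes tested. That direction did not hold under every setting. With limma-voom, Lcn2, Cp, Hp and C3 were higher in Ndr and the median was 0.46. The edgeR median was 0.37 without WT hilar 1221, -0.14 without WT hilar 1223 and -0.86 without WT hilar 1225. It was -0.51 when Ndr hilar 1220 was left out and -0.57 when Ndr hilar 1224 was. The share of all genes called by edgeR was 0%, and 6.54% had an unadjusted p under 0.05, with none of the 6 among them. Without WT hilar 1225 it was 1 of the 6, beside 3.37% of all genes. DESeq2 called 42 genes, or 0.28%, again with none of the 6, and none of them separated the groups with Ndr lower, as 4.19% of all genes did. The 8 proliferation genes, a list chosen after the values were seen, were all lower in Ndr in this comparison, with a median of -1.86. Their sum was 371, 253 and 1545 CPM in WT hilar 1221, 1223 and 1225. It was 340, 209 and 221 CPM in Ndr hilar 1219, 1220 and 1224. The size of that difference thus rests largely on WT hilar 1225, and the part of these genes in the comparison was not tested.

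In peripheral cultures all 6 estimates were lower in Ndr, and again none passed the test. Cp was 3.05-fold lower (log2 difference -1.61, SE 0.726, adjusted p = 0.99996 by edgeR) and was the only gene of the 6 whose Ndr libraries all lay under the WT libraries, which 3.62% of all genes did. Lcn2 was 2.67-fold lower (log2 difference -1.42, SE 1.05) and C3 2.94-fold lower (-1.56, SE 0.987). Saa3 was at -2.91 (SE 1.78), Hp at -2.47 (SE 1.97) and Cfb at -0.28 (SE 0.763). The median was -1.58, against 0.03 over all genes. Under an unadjusted p of 0.05 stood 1 of the 6, beside 2.92% of all genes. edgeR called no gene, 0%, and DESeq2 called 6 genes, 0.04%, none of them an acute phase gene of the set. Without Ndr peripheral 1224, the highest library of its group for all 6 genes, the median was -3.16 and 5 of the 6 had an unadjusted p under 0.05, beside 4.32% of all genes, with none of the 6 called. Without WT peripheral 1221 or 1223, or Ndr peripheral 1219 or 1220, the count was 0 of 6.

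Over mouse totals, Lcn2 was at 4779, 5510 and 1830 CPM in WT mice 1221, 1223 and 1225 and had a mean of 2187 ± 838 CPM (SD, n = 3) in Ndr mice. The difference was 1.85-fold, lower in Ndr (log2 difference -0.89, SE 0.466, adjusted p = 0.903 by edgeR). The mean of Cp was 3512 ± 2083 CPM for WT animals and 1937 ± 131 CPM for Ndr animals (SD, n = 3 each; log2 difference -0.86, SE 0.486), and C3 averaged 2012 ± 1255 and 1130 ± 462 CPM (-0.83, SE 0.545). The Ndr mice were far more even in Cp than the WT mice. Saa3 had a mean of 64.7 ± 67.6 CPM for WT animals and of 7.19 ± 8.70 CPM for Ndr animals, 9.03-fold lower (log2 difference -3.18, SE 1.11, adjusted p = 0.877 by edgeR). Hp was at -1.52 (SE 1.2) and Cfb at -0.18 (SE 0.648). All 6 were lower, with a median of -0.87 against -0.0045 over 15401 genes, and 1 of 6 had an unadjusted p under 0.05, as 5.42% of all genes did. Without WT mouse 1225 the count was 4 of 6, beside 6.75% of all genes, and the median -1.26, while without WT mouse 1221 the median was -0.35 and without Ndr mouse 1219 or 1220 the count was 0. No gene was called by edgeR, 0%, and 113 by DESeq2, 0.734%, none of the 6, with no adjusted p from DESeq2 for Hp. By DESeq2, 3 of the 6 had an unadjusted p under 0.05, beside 6.10% of all genes. No member separated the genotypes with Ndr lower, as 5.78% of all genes did.

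Date and genotype were largely confounded, and the direction of the difference depended on how the date was treated. On the single date that held both genotypes, Ndr mouse 1224 was set against WT mouse 1225, with 1 library per group and no replicate check. In hilar cultures Lcn2 was at 2063 CPM in the Ndr library and 337 CPM in the WT library, Cp at 2339 and 384 CPM, C3 at 1262 and 154 CPM, and Hp at 46.5 and 0.125 CPM. All 6 tested genes were higher in the Ndr hilar library of that date. The WT library on the other side, WT hilar 1225, had the lowest summed level of the 9 genes among the 12 libraries, at 886 CPM. In peripheral cultures Lcn2, at 3827 against 3043 CPM, C3, at 1815 against 1268 CPM, Hp, at 36.2 against 20 CPM, and Cfb, at 35.2 against 13.1 CPM, were higher in the Ndr library, while Cp was at 1781 against 1938 CPM and Saa3 at 26.2 against 64.9 CPM. With the derivation date as a factor in edgeR, the genotype term over mouse totals is set by these same 2 mice, since the other dates hold 1 genotype each. So is the average of the hilar and peripheral terms, while their split also draws on the region differences of the other mice. The fit is thus no result separate from this pair. The medians of the 6 genes in that fit were 2.5 in hilar cultures, 0.39 in peripheral cultures and 0.91 over mouse totals, and no member was called.

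In hilar cultures and mouse totals the authors' normalized table also gave the opposite direction to the raw counts, while in peripheral cultures 5 of the 6 genes were lower in Ndr on it too (median -0.93). Its values are whole counts divided by 1 factor per library, and the recovered counts differed from the raw ones: for the 9 genes they were equal in 41 of 108 values. A rerun of ComBat-seq with date as the batch and genotype kept gave the recovered value in 100 of 108. If the table was made so, its genotype difference is largely set by mice 1224 and 1225, since only day 21 holds both genotypes. The table is then no result separate from the fit with the date as a factor. Raw Lcn2 counts of 67664 and 48913 in WT hilar 1221 and 1223 stood at 20549 and 25269 in that table, and 38793 in Ndr hilar 1219 stood at 88964. Tested on this table with limma-trend over mouse totals, on the log2(value + 1) scale, Lcn2 was higher in Ndr by 0.88 (SE 0.165, adjusted p = 0.00947), Cp by 0.87 (SE 0.200, adjusted p = 0.0182), Cfb by 1.46 (SE 0.372, adjusted p = 0.0254) and C3 by 1.22 (SE 0.373, adjusted p = 0.0450), all by limma. These were 4 of the 6, where 22.9% of all genes were called higher in Ndr. The fit takes the adjusted values as they stand and does not count the degrees of freedom spent on the dates, with genotype kept in the rerun that matched them. The median SE over all genes was 0.103, against 0.222 on raw counts, and 7227 of 15401 genes were called, so these standard errors and p-values understate the spread between mice. In hilar cultures Cp alone of the 6 was called, 1.75 higher (SE 0.425, adjusted p = 0.0256, limma), with 4.46% of all genes called higher. With edgeR on the recovered counts the calls were Lcn2, Cp and Cfb over mouse totals (20.5% of all genes called higher) and Cp in hilar cultures (4.27%). Which scale is nearer the effect of the genotype was not tested, and for the 4 mice of the other dates the date and the genotype cannot be told apart.

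**Figure D3:**
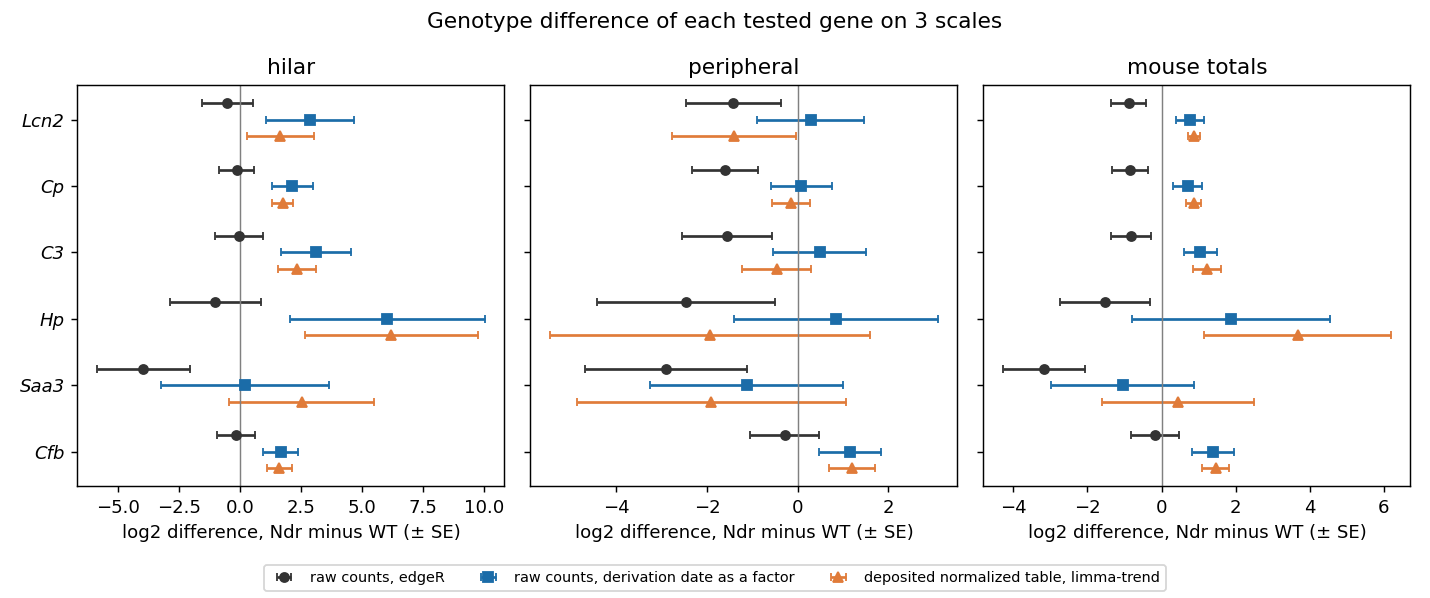
Log2 difference, Ndr minus WT, with its standard error, for the 6 tested genes in hilar cultures, peripheral cultures and mouse totals, from raw counts by edgeR (circles), raw counts with derivation date as a factor (squares) and the authors' normalized table by limma-trend (triangles). In mouse totals the raw-count estimates lie left of 0 and, apart from Saa3 with the date factor, the other estimates lie right of 0.

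The region comparison set the hilar and the peripheral culture of the same mice side by side. The edgeR tests of region and of the interaction have no mouse term and so do not use this pairing. A fit with the mouse as a block is given further on as an alternative. In WT mice no gene passed the test, and the log2 differences, hilar minus peripheral, were -0.06 (SE 1.03) for Lcn2, -0.31 (SE 0.709) for Cp, -0.53 (SE 0.968) for C3, -0.32 (SE 1.64) for Saa3, -0.31 (SE 0.764) for Cfb and 1.13 (SE 1.86) for Hp. C3 was the only one of the 6 that was lower in the hilar culture of each WT mouse, as 9.36% of all genes were. WT mouse 1225 stood apart, with Lcn2 at 337 against 3043 CPM, while in mouse 1221 the pair was 4120 and 5563 CPM and in mouse 1223 it was 7544 and 3927 CPM. None of the 6 had an unadjusted p under 0.05, where 0.506% of all genes did. The calls were 0% by edgeR and 0% by DESeq2.

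In Ndr mice, Cp and Hp were higher in the hilar culture of every mouse, as 12.8% of all genes were, and no member passed the test. Cp was 2.26-fold higher in hilar cultures (log2 difference 1.18, SE 0.718, adjusted p = 0.613 by edgeR) and Hp 5.99-fold higher (2.58, SE 1.98, adjusted p = 0.714). Lcn2 (0.84, SE 1.04) and C3 (0.99, SE 0.974) were higher in hilar cultures of mice 1219 and 1220 and lower in mouse 1224. Saa3 was at -1.36 (SE 1.79) and Cfb at -0.17 (SE 0.767). The median was 0.92, against -0.01 over all genes, and it was 0.49 without Ndr peripheral 1219, 0.52 without 1220 and 2.10 without 1224. None of the 6 had an unadjusted p under 0.05, where 10.3% of all genes did. Without Ndr peripheral 1224 it was 3 of the 6, beside 6.95% of all genes. edgeR called 0% and DESeq2 72 genes, 0.48%, none of the 6. In the same comparison all 8 proliferation genes were lower in hilar cultures, with a median log2 difference of -2.05, and 4 of the 6 tested hepatocyte markers were lower as well (median -0.59). Among these markers Alb averaged 22.9 CPM in Ndr hilar and 2.76 CPM in Ndr peripheral cultures, and Apob 6.48 and 85.3 CPM. The part of either list in the result was not tested.

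The interaction, the hilar genotype difference minus the peripheral one, asked whether the allele acted differently in the 2 regions. It was 1.52 (SE 1.37) for C3, 1.49 (SE 1.01) for Cp, 1.45 (SE 2.64) for Hp, 0.91 (SE 1.46) for Lcn2, 0.14 (SE 1.08) for Cfb and -1.04 (SE 2.42) for Saa3. Every adjusted p of the 6 was 0.994 or more by edgeR. None had an unadjusted p under 0.05, where 3% of all genes did, and the share of genes called was 0% by edgeR and 0.0266% by DESeq2. Without WT hilar 1221, and without Ndr peripheral 1224, 1 of the 6 had an unadjusted p under 0.05, beside 8.93% and 3.6% of all genes.

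**Figure D4:**
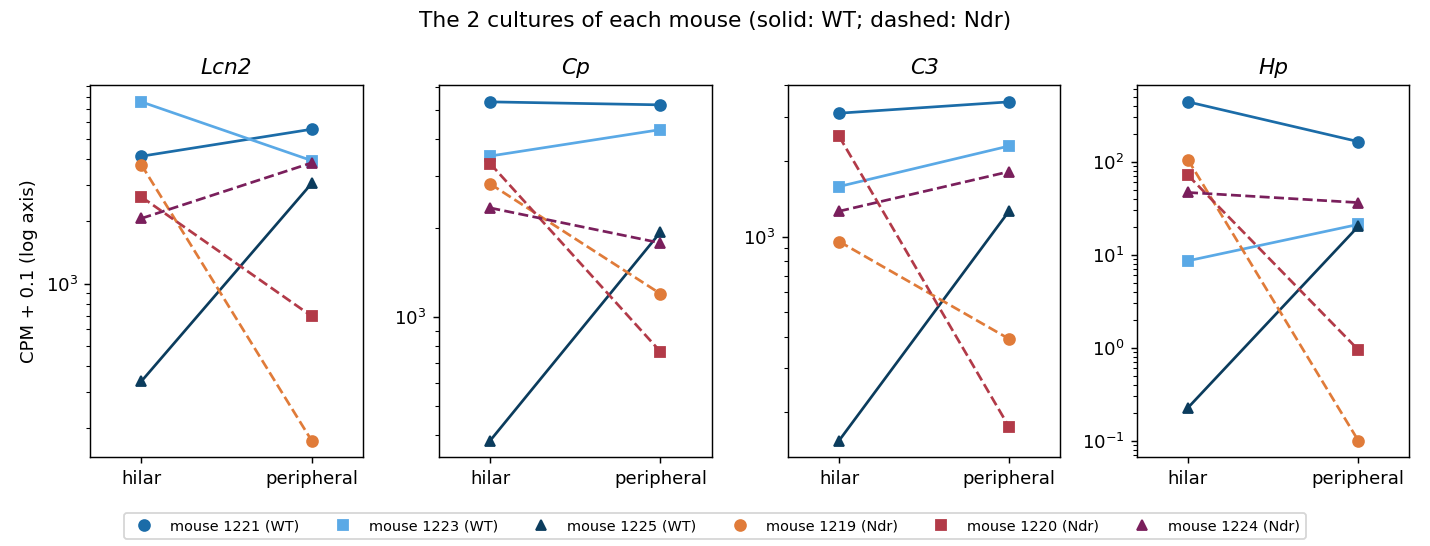
Lcn2, Cp, C3 and Hp in the hilar and peripheral culture of each mouse, as CPM plus 0.1 on a log axis, with solid lines for WT and dashed lines for Ndr mice. The steepest lines are those of WT mouse 1225, lower in the hilar culture, and Ndr mice 1219 and 1220, lower in the peripheral culture.

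The genes that signal to the acute phase set were read from lists of the pathway, and none of any list passed the edgeR test in any comparison. Of 20 genes of the interleukin 6 family and STAT3, 18 were tested. Il6st, the shared receptor subunit of that family, was at a mean of 222 CPM, and Stat3 at 191 CPM. In peripheral cultures 16 of the 18 were lower in Ndr, with a median log2 difference of -0.48, beside 45.5% of all genes lower. Over mouse totals 14 of 18 were lower (median -0.27), with Il6st at -0.15 (SE 0.300) and Stat3 at -0.26 (SE 0.325), and in hilar cultures 9 of 18. Il6 itself did not exceed 0.106 CPM in any library. The summed level of the list was lowest in Ndr peripheral 1220 (685 CPM) and WT hilar 1225 (765 CPM), followed by Ndr hilar 1219 (848 CPM) and Ndr peripheral 1219 (872 CPM).

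Of 30 genes of interleukin 1, interleukin 17, Toll-like receptor and NF-kB signalling, 29 were tested. The most abundant were Cd14, the co-receptor for lipopolysaccharide, at a mean of 601 CPM, and Nfkb1, a subunit of NF-kB, at 173 CPM. Over mouse totals 21 of 29 were lower in Ndr (median -0.18), with Nfkb1 at -0.45 (SE 0.198) and Cd14 at 0.56 (SE 0.364). Il1b did not exceed 0.154 CPM. The other acute phase genes had a median log2 difference of -0.21 over mouse totals, with 8 of 12 lower, and of -1.32 in peripheral cultures, with 9 of 12 lower. Lbp was at -0.16 (SE 0.411) and Il1rn at 0.18 (SE 0.466) over mouse totals. In the region comparison of Ndr mice 6 of these 12 had an unadjusted p under 0.05, beside 10.3% of all genes, and the median of the 12 was 0.78, against -0.01 over all genes.

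Of the other complement genes 15 of 27 were tested over mouse totals, 7 of them lower in Ndr (median 0.09). Cfi was at 0.83 (SE 0.713). Among 15 iron handling genes, 14 were tested, 7 higher and 7 lower in Ndr. Trf, the iron carrier transferrin, was at a mean of 2548 CPM with a difference of -0.94 (SE 0.505), and Fth1, the ferritin heavy chain, at 665 CPM with 0.16 (SE 0.169). Of 12 cholangiocyte markers 5 were lower over mouse totals (median 0.04), with Spp1 at 0.16 (SE 0.469) and Krt18 at -0.30 (SE 0.474). Of 16 hepatocyte markers 6 were tested, with Hnf4a at 0.05 (SE 0.160) and Apob at 0.66 (SE 0.492). Of 14 leukocyte markers 5 were tested, with Csf1r at 0.61 (SE 0.325) and S100a9 at -1.72 (SE 1.03), and of 10 fibroblast and stellate cell markers 2 were tested, Reln at 1.31 (SE 0.554) and Col1a1 at -0.20 (SE 0.524).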

How the data were processed

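RNA of 12 organoid cultures from 6 mice was sequenced from TruSeq RNA v2 libraries, per the labels' protocols; the kit does not keep strand. The authors deposited raw read counts per gene and a normalized table (signal); the submitters' processing notes name featureCounts, GRCm39 and DESeq2 1.34.0. For the aligner, the annotation release and shared reads, nothing is stated in the labels or headers. The deposited signal values were, for 100% of them and within a tolerance of 0.01, whole counts divided by 1 factor per library, and 43.1% of these equalled the raw count. ComBat-seq of sva 3.50.0, run here by date with genotype kept, returned the recovered count for 99.4% of values, a step that neither labels nor headers mention.

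Raw counts were tested with edgeR 4.0.16 in R 4.3.3 (low-count filter, TMM scaling, robust quasi-likelihood test): 15014 genes over 12 libraries with 8 residual degrees of freedom, and 15401 genes over 6 mouse totals with 4. CPM used the TMM-scaled totals. Adjusted p-values are Benjamini-Hochberg over all genes tested, and a call is one under 0.05. Alternatives were relative log expression scaling, DESeq2 1.42.0, limma 3.58.1 (voom on counts, trend on log2 of the normalized value plus 1), no filter, derivation date as a factor, a mouse block, leaving out each library or mouse, and, chosen after seeing the data, edgeR on the recovered counts. On simulated counts, 58.0% of 4-fold and 92.0% of 16-fold changes were recovered for the hilar genotype comparison (14848 genes), and 84.7% and 98.0% for mouse totals (15200 genes). Of the calls, 10 of 160 and 9 of 190 were false. The changed genes were drawn from all well-expressed genes, and libraries were simulated as independent. The median SE of all genes in hilar cultures was 0.3535, against 0.709 to 1.91 for the 6 acute phase genes, so these shares do not apply to them.

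Pairs of libraries come from the same mouse, as the mouse numbers in the labels say. Within pairs, the correlation of deviations from the group means over genes was 0.33 for mouse 1221, -0.06 for 1223, 0.45 for 1225, -0.31 for 1219, -0.34 for 1220 and 0.14 for 1224. Each library is 1 culture. The main fit of the 12 libraries has no mouse term: its 4 groups share 1 estimate of the spread, and the cultures of a mouse are treated as independent. Of the edgeR p-values of the main fits, only those over mouse totals take the mouse as the unit, with 3 mice a genotype. The 9 genes and the gene lists were chosen with earlier results of these data known. All 9 are named in each comparison, and of each other list the 2 most abundant tested genes, since no gene passed the threshold; 1 gene that this rule and the search for similar profiles named is not reported here. Symbols were taken from GENCODE M21 (GRCm38), which named 52093 identifiers and left 1607 without a symbol, and 173 of 174 list symbols matched. Genes whose reads may be shared were found as 50-base stretches common to 2 genes in that annotation.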

Additional observations from a re-analysis of the deposited data

How the results depend on the processing

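No raw-count alternative run here called any of the 6 genes, and DESeq2, relative log expression scaling and the fit without a filter kept the direction of every one of their differences. With the date as a factor, the genotype term over mouse totals comes from 1 mouse of each genotype, the pair of day 21. The hilar and peripheral terms rest on that pair for their average, and their split also draws on the region differences of the other mice. Counts of genes called over the whole table were 0 in the 6 edgeR comparisons. DESeq2 called 42 genes for the hilar genotype difference, 6 for the peripheral one, 72 for region in Ndr mice, 4 for the interaction and 113 over mouse totals. Without a filter edgeR called 5 over mouse totals, and with the date as a factor 7. On the normalized table limma-trend called 1446 (hilar), 93 (peripheral), 9 (region in Ndr), 2 (interaction) and 7227 (mouse totals). On the recovered counts edgeR called 1514, 126, 30 (region in Ndr), 5 (region in WT) and 6753. All of the following are log2 differences that changed sign or moved, and the cause was not tested.

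With limma-voom the hilar genotype difference was 0.33 for Lcn2, 0.60 for Cp, 2.20 for Hp and 0.76 for C3, the region difference was -1.46 for Hp in WT and 1.2 for Saa3 and 0.19 for Cfb in Ndr, and the interaction for Saa3 was 2.36. The replicate block (the mouse) joined 2 methods. Genotype was fitted by limma-voom with a correlation within mice, and region and the interaction by edgeR with a term for each mouse. The same differences were then 0.33, 0.60, 2.16 and 0.76, then -1.36, 0.11 and 0.20, and 0.47. The hilar values are close to those of limma-voom without a block, so their change of sign came with that method. No call changed with the block in any comparison.

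With the date as a factor the hilar values were 2.87 for Lcn2, 2.14 for Cp, 0.20 for Saa3, 6.04 for Hp, 1.67 for Cfb and 3.13 for C3 (median 2.5). The peripheral ones were 0.29 for Lcn2, 0.083 for Cp, 0.85 for Hp, 1.16 for Cfb and 0.49 for C3 (median 0.39). Region gave -0.081 for Hp in WT and 0.085 for Saa3 and 0.20 for Cfb in Ndr, and the interaction for Saa3 was 1.33. Over mouse totals Lcn2 was at 0.76, Cp at 0.70, Hp at 1.88, Cfb at 1.39 and C3 at 1.05 (median 0.91).

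On the normalized table the hilar values were 1.66 for Lcn2, 1.75 for Cp, 2.54 for Saa3, 6.20 for Hp, 1.62 for Cfb and 2.34 for C3 (median 2.04), and the peripheral one for Cfb was 1.21. Region gave -1.06 for Hp in WT and 2.31 for Saa3 in Ndr (median 1.99), and the interaction 4.44 for Saa3 (median 2.93). Over mouse totals Lcn2 was at 0.88, Cp at 0.87, Saa3 at 0.44, Hp at 3.67, Cfb at 1.46 and C3 at 1.22 (median 1.05).

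On the recovered counts the hilar values were 1.48 for Lcn2, 1.64 for Cp, 0.70 for Hp, 1.64 for Cfb and 2.11 for C3 (median 1.56). The peripheral ones were 0.95 for Hp, 1.09 for Cfb and 0.016 for C3 (median -0.0085). Region in Ndr gave 0.77 for Saa3, and the interaction 1.49 for Saa3 and -0.24 for Hp. Over mouse totals Lcn2 was at 0.90, Cp at 0.77, Hp at 0.48, Cfb at 1.39 and C3 at 1.04 (median 0.84).

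Leaving out 1 library at a time, the hilar genotype difference ran from -1.07 to 0.33 for Lcn2, -0.65 to 0.51 for Cp, -1.60 to 4.11 for Hp, -0.90 to 0.23 for Cfb and -0.57 to 0.83 for C3. In peripheral cultures Cfb ran from -1.45 to 0.38, the median from -3.16 to -1.16, and genes called from 0 to 2. Region in WT ran from -0.91 to 0.49 for Lcn2, -0.94 to 0.21 for Cp, -2.02 to 0.77 for Saa3, -4.0 to 2.87 for Hp, -0.67 to 0.35 for Cfb and -1.40 to 0.00029 for C3. Region in Ndr ran from -1.94 to 1.72 for Saa3 and -0.91 to 0.996 for Cfb, with a median of 0.49 to 2.10 and 0 to 7 genes called. The interaction ran from -2.13 to 2.05 for Saa3, -0.29 to 6.59 for Hp and -0.60 to 1.31 for Cfb. Leaving out 1 mouse, the totals ran from -2.06 to 1.63 for Hp and -1.17 to 0.33 for Cfb, with 0 to 4 genes called.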
